A study of Mus musculus with 6 samples.

Results

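The genes described here are 46 subunits of the BAF, NuRD and PRC2 chromatin complexes, with the related remodellers Chd7 and Chd8, of 55487 genes in the deposited table. They were taken by gene symbol from a list whose rule sets no threshold on a measured value, though it was drawn up with earlier results of these data known. Each symbol matched exactly 1 gene. RNA was sequenced from pieces of thoracic cord dissected at P0, the day of birth (postnatal day 0), in 2 groups of mice, 3 samples labelled Myt1-/-, called null below, and 3 labelled WT. The protein Myt1 is a zinc finger regulator of transcription in developing neural cells, and the groups differ in whether the gene is intact. The labels do not describe the allele. Nor do they tie each sample to an animal of its own, so a p-value here speaks only of the spread among the 6 samples, which may be technical. Values are TPM, which scale a gene's reads by transcript length and by the total of the sample. They carry no read number, so the depth behind each value is unknown. Whole cord holds many cell types, and in such bulk samples fewer cells of a type and less RNA per cell cannot be told apart.

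BAF (the mammalian SWI/SNF complex) slides and evicts nucleosomes with a Smarca4 or Smarca2 motor. Neural progenitors use Actl6a, Phf10 or Dpf2, and Ss18, and neurons replace them with Actl6b, Dpf1 or Dpf3, and Ss18l1 as they leave the cell cycle. NuRD joins a Chd motor to histone deacetylases, and PRC2 places the repressive methyl mark on lysine 27 of histone H3 through Ezh1 or Ezh2. In mouse neurons the microRNA miR-9-3p, also written miR-9*, is known to repress Actl6a at the change of subunits.

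The sequences tied to that change are shown because the progenitor and neuronal subunits are read against each other below. The mature microRNA (RefSeq, GRCm38.p6) has its seed, bases 2 to 8, in capitals, and the stretch of the Actl6a 3' untranslated region (chr3:32726629-32726658, plus strand, GENCODE M21 on GRCm38) has in capitals the letters that pair with the seed.
miR-9-3p: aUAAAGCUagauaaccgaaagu
Actl6a site: tcaacgtctgtAGCTTTAgtacactcagga
The letters AGCTTTA began at base 38 after the stop codon in an untranslated region of 371 bases. On the sense strand they were found in the first 371 bases of 2.82% of the 15658 untranslated regions at least that long, and in 4 of the 41 such regions of the genes described here, those of Actl6a, Smarca2, Smarcd2 and Smarce1. Actl6a was chosen for its site and sets the length of 371 bases, so its place among the 4 was fixed in advance. MicroRNA levels were not analysed here.

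Sequences at the RefSeq starts of Actl6b, Actl6a and Ezh2 are shown next, Ezh2 because its log2 difference between the groups was the largest among the 46 genes. Each runs 5' to 3' on the gene's strand, taken from the RefSeq window of 250 bases before to 50 after the start (GRCm38.p6) and limited to bases that no GENCODE M21 exon covers. Capitals mark the letters CCAAT on either strand. The positions are chr5:137553296-137553516 on the plus strand for Actl6b, chr3:32708296-32708506 on the plus strand for Actl6a and chr6:47595059-47595183 on the minus strand for Ezh2. The Actl6b stretch ends just before the gene as GENCODE M21 draws it. Those of Actl6a and Ezh2 lie inside the longer GENCODE genes, between exons, because GENCODE places the first start of each gene farther 5'.
Actl6b: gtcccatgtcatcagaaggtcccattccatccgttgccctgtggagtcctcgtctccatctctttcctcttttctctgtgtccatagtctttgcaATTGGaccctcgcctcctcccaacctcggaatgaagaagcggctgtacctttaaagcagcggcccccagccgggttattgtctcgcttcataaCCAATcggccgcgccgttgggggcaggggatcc
Actl6a: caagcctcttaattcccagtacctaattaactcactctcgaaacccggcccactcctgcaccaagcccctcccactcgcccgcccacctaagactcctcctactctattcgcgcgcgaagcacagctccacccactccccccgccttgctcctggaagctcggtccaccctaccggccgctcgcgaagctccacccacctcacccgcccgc
Ezh2: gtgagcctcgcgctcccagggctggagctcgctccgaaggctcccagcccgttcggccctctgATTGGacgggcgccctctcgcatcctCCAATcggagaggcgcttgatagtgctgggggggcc
Of the 46 genes, 38 had at least 1 such window. Actl6b and Ezh2 each held CCAAT 3 times in the whole window of 300 bases, and Actl6a held none. CCAAT was in 37.4% of all 32851 windows and in 17 of 44 windows of these genes. AAGTTT, the core of the motif bound by Myt1, was searched on both strands too. It was in 14.4% of all windows and in 1 of the 44, that of Dpf2.

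The libraries differed in ways the genotype does not name. WT replicate 1 had 11.3% of its TPM in mitochondrial genes, and the remaining 5 samples had 8.64% to 9.04%. Of the 46 genes, 26 had their lowest value of all 6 samples in WT replicate 1. The 6 skeletal muscle markers summed to 91.3 TPM in null replicate 3, against 8.24 to 41.1 TPM elsewhere, with none of them at 0 in all samples. The 5 erythroid markers summed to between 1267 and 7531 TPM and followed no group. Sensory ganglion markers summed to 30.9 to 78.3 TPM in the null samples, against 55.3 to 155 TPM in the WT samples. Schwann cell markers summed to 73.5 to 124.56 TPM in the null and 124.78 to 232 TPM in WT. Motor neuron markers summed to 42.0 to 46.6 TPM in the null and 54.05 to 63.5 TPM in WT. Both sums were lower in every null sample. By single gene, 3 of 5 Schwann cell markers and 1 of 5 motor neuron markers (Slc18a3) lay below all WT samples, beside 5.38% of all genes tested. The motor neuron marker Mnx1 had a higher mean in the null. Neuronal identity was clear in all samples, with 8 of 8 pan-neuronal markers detected and sums of 3914 to 4013 TPM in the null samples against 3875 to 3939 TPM in the WT samples. Markers of differentiating oligodendrocytes summed to 86.2 to 105 TPM in the null samples, against 290.5 to 716 TPM in the WT samples. Myt1 itself was at 6.14, 5.36 and 5.28 TPM in the null samples, against 11.54, 11.53 and 13.61 TPM in the WT samples. Its mean was 5.59 ± 0.475 TPM in the null and 12.2 ± 1.198 TPM in WT (SD, n = 3 each), with an adjusted limma p of 0.140 over all genes tested. Whether the remaining transcript holds the altered part of the gene cannot be read from gene totals.

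Transcripts of the chromatin complexes stood at close to the same level in null and WT cord. None of the 46 genes passed, at an adjusted p under 0.05 by limma on log2(TPM + 1) over all 15962 genes tested, and the smallest adjusted p among them was 0.669. The same threshold called 0% of all genes tested. At an unadjusted limma p under 0.05, 2 of the 46 were higher in the null, Ss18l1 and Ezh2, beside 4.32% of all genes tested. None was lower, beside 3.13%. All 3 null samples lay above all 3 WT samples for Ss18l1, Smarcd3 and Arid2, which is 3 of 46 beside 8.91% of all genes. All 3 lay below for Mbd3, 1 of 46 beside 5.38%. These shares are near or under those of all genes.

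The intervals bound what could have been missed. The 95% limma interval of the log2 difference lay within a 1.5-fold change in either direction for 44 of the 46, all but Ezh2 and Chd7. It lay within a 1.25-fold change for 36 of the 46, or 78.3%, against 38.9% of all genes tested. Of the 10205 genes whose mean was in the same range of levels, 8.04 to 228 TPM, 54.5% had such an interval. Levels were not matched within that range, with a median of 40.6 TPM for the 46 and 27.5 TPM for the 10205. The median SE was 0.075 for the 46 and 0.090 for the 10205. The median log2 difference was 0.043 for the 46 genes and 0.025 for all genes tested, with 33 of the 46 above 0 (71.7%, against 57.5% of all genes). Without WT replicate 1 the median of the 46 was 0.011 and that of all genes -0.0039, with 28 above 0. Without WT replicate 3 they were 0.066 and 0.040. After median-ratio scaling the medians were 0.018 and 0.0022, again with 28 above 0. Among all genes tested, 690 were higher and 499 lower at an unadjusted p under 0.05. After median-ratio scaling there were 551 higher and 656 lower.

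**Figure D1:**
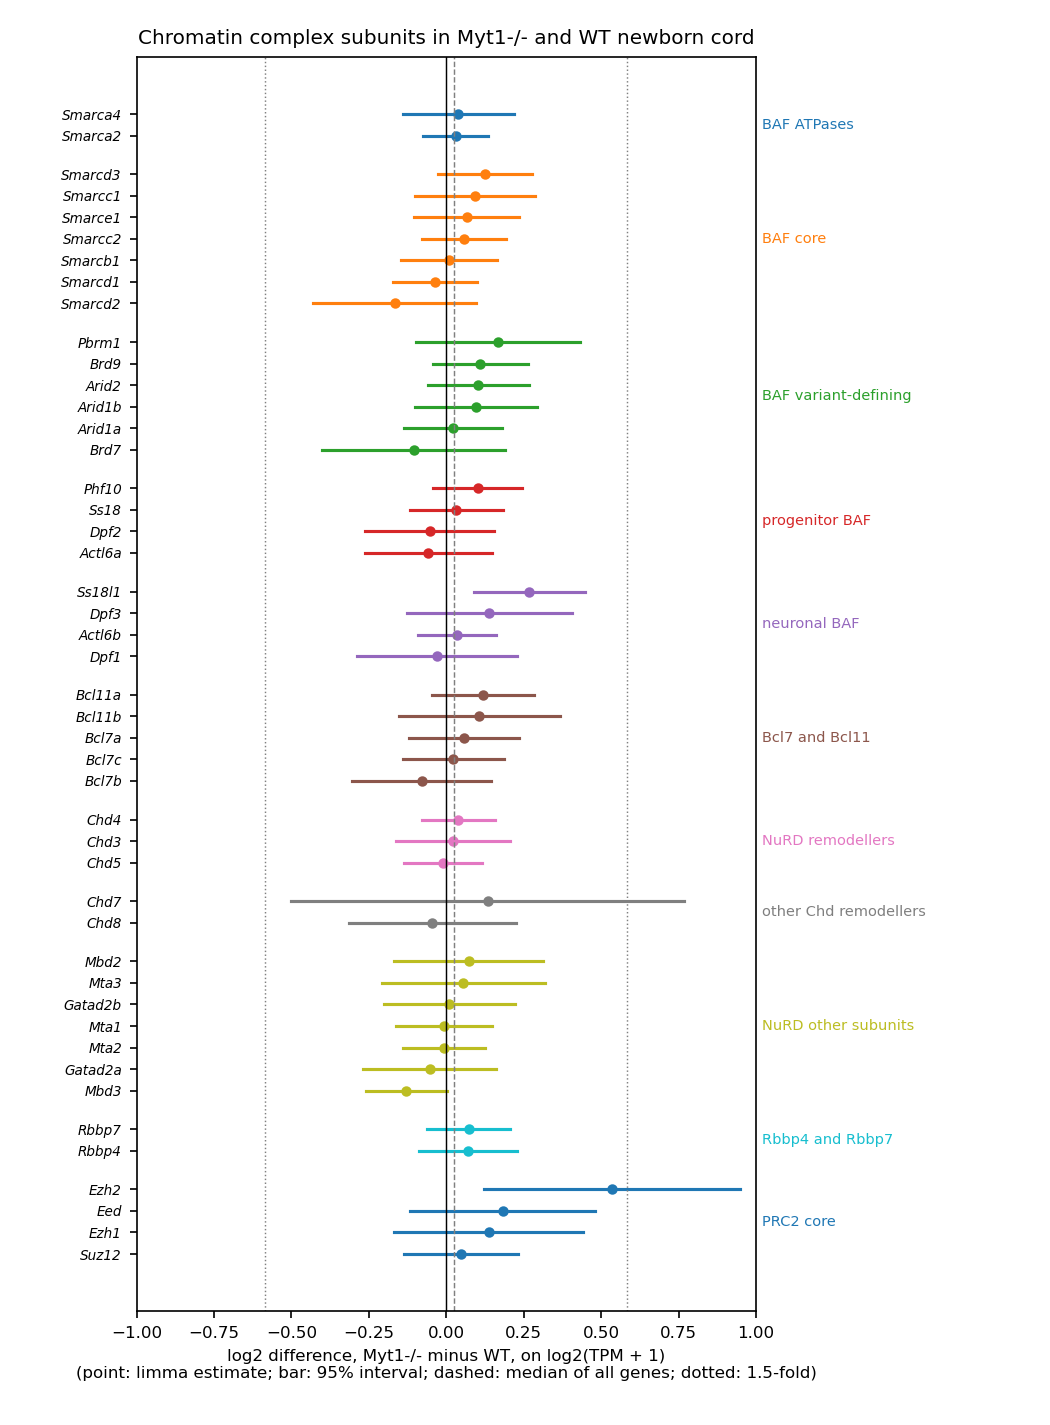
Log2 difference of each of the 46 genes, null minus WT, in units of log2(TPM + 1) (x axis), grouped by role; points are limma estimates, bars 95% intervals, the dashed line the median of all genes tested (0.025) and the dotted lines a 1.5-fold change. The intervals of 44 genes stay between the dotted lines, and those of Ss18l1 and Ezh2 lie above 0.

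The progenitor BAF subunits were at nearly the same levels in both groups. Actl6a (ENSMUSG00000027671), an actin-related protein that binds the motor, was at 14.50, 16.68 and 16.18 TPM in the null samples, against 15.37, 17.19 and 16.85 TPM in the WT samples. The groups overlapped, and the log2 difference was -0.06 (SE 0.086, 95% interval -0.26 to 0.15). Phf10, a PHD finger subunit of the PBAF form, was at 47.10, 45.39 and 41.97 TPM in the null, against 40.82, 41.89 and 42.33 TPM in WT. Null replicate 3 lay among the WT values, and the difference was 0.10 (95% interval -0.04 to 0.24). Dpf2, a double PHD finger subunit that reads histone tails, was at 34.25, 36.35 and 33.00 TPM in the null, against 31.77, 38.55 and 37.61 TPM in WT. All 3 null values lay inside the range of the WT values. Ss18, the subunit fused to SSX genes in synovial sarcoma, was at 25.02, 26.78 and 26.22 TPM in the null, against 24.35, 25.79 and 26.05 TPM in WT. The differences were -0.05 for Dpf2 (95% interval -0.26 to 0.16) and 0.03 for Ss18 (95% interval -0.12 to 0.18). As a group the 4 had a median log2 difference of -0.010, 2 above 0 and 2 below. With 1 sample left out it lay between -0.050 and 0.029 and changed sign.

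Among the neuronal BAF subunits, Ss18l1 had the smallest p of the 46 genes. Ss18l1 (ENSMUSG00000039086, chromosome 2, 180042509 to 180070201, plus strand, GRCm38), also called CREST, is a calcium-responsive coactivator that takes the place of Ss18 and is known for its part in dendrite growth. It was at 47.04, 48.14 and 48.63 TPM in the null samples, against 35.86, 43.10 and 40.28 TPM in the WT samples, and the groups did not overlap. Its mean was 47.9 ± 0.814 TPM in the null and 39.7 ± 3.65 TPM in WT (SD, n = 3 each), 1.21-fold higher, with a log2 difference of 0.27 (SE 0.075, 95% interval 0.09 to 0.45). By limma the unadjusted p was 0.00970 and the adjusted p over all genes tested 0.669, so it did not pass. With any 1 sample left out the difference was between 0.20 and 0.33, lowest without WT replicate 1, and the unadjusted p between 0.00464 and 0.0330.

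The other neuronal subunits overlapped between the groups. Actl6b (ENSMUSG00000029712), the neuronal counterpart of Actl6a, was at 108.42, 100.03 and 110.75 TPM in the null samples, against 105.75, 104.55 and 100.80 TPM in the WT samples. These ranges overlapped, and the difference was 0.04 (SE 0.053, 95% interval -0.09 to 0.16). Dpf1, a neuronal relative of Dpf2, was at 67.54, 67.67 and 86.89 TPM in the null, against 69.95, 78.97 and 76.43 TPM in WT. Null replicate 3 was the highest of the 6 and the other null samples the lowest, with a difference of -0.03 (95% interval -0.29 to 0.23). Dpf3, which is also known from heart and muscle, was at 17.64, 20.29 and 18.47 TPM in the null, against 14.60, 19.01 and 17.52 TPM in WT. The difference was 0.14 (95% interval -0.13 to 0.41). The median of the 4 was 0.088, and 1 of the 4 (Ss18l1) lay above all WT samples, beside 8.91% of all genes tested. With 1 sample left out this median was between 0.044, without WT replicate 1, and 0.13, without WT replicate 2.

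**Figure D2:**
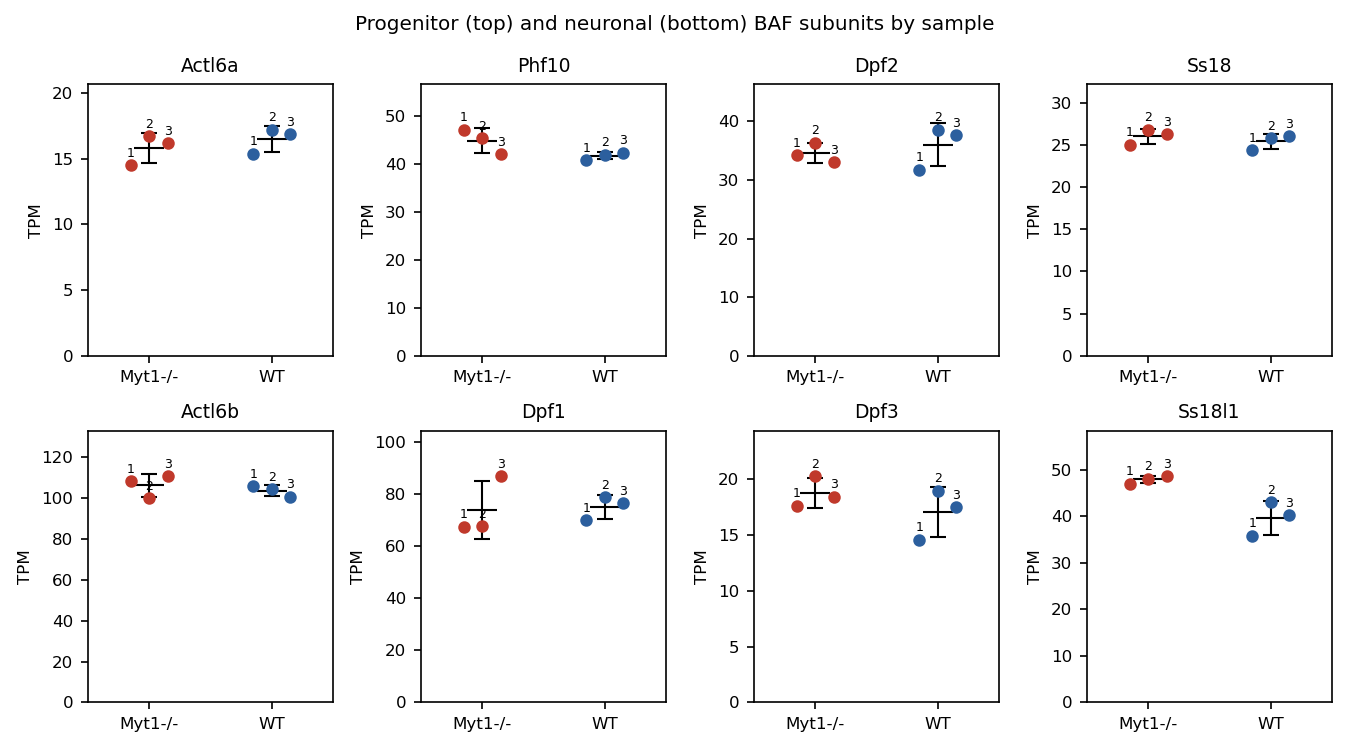
TPM of the 4 progenitor BAF subunits (top row) and the 4 neuronal ones (bottom row) in each sample, null left of WT; numbers beside points are replicates, horizontal marks the means and bars the SD of 3 samples. Ss18l1 is the only panel in which the groups separate, with null samples at 47.04 to 48.63 TPM and WT samples at 35.86 to 43.10 TPM.

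The balance between neuronal and progenitor forms could be read within each library, with a limit on the progenitor side. Exons of Actl6a, Phf10 and Dpf2 share bases with opposite-strand genes at 14.2 TPM (Mrpl47), 16.0 TPM (1600012H06Rik) and 17.9 TPM (Gm42067). No neuronal subunit shares exon bases with a gene of at least 1 TPM. Whether counting used strand is not given in the sources used here, so these ratios may hold reads of the other genes. Actl6b was 7.48, 5.997 and 6.84 times as high as Actl6a in the null samples, against 6.88, 6.08 and 5.98 times in the WT samples. The groups overlapped. For Ss18l1 over Ss18 the ratios were 1.88, 1.80 and 1.85 in the null, against 1.47, 1.67 and 1.55 in WT, and every null sample lay above every WT sample. Dpf1 and Dpf3 together over Phf10 and Dpf2 together gave 1.18 ± 0.199 in the null and 1.19 ± 0.0282 in WT (SD, n = 3 each). All 4 neuronal over all 4 progenitor subunits gave 2.04 ± 0.190 in the null and 1.97 ± 0.0525 in WT, a difference smaller than the SD in the null. Neuronal forms were the more abundant transcripts at all 3 positions in all 6 samples, by as little as 1.05-fold for the Dpf position in null replicate 1.

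Of the BAF motors, Smarca2 was the more abundant in every sample. Smarca4, also called Brg1, was at 79.43, 84.84 and 85.67 TPM in the null samples, against 73.36, 82.58 and 87.78 TPM in the WT samples. All null values lay within the WT range. Smarca2, also called Brm, was at 155.86, 163.83 and 168.58 TPM in the null, against 160.94, 156.66 and 160.28 TPM in WT. The log2 differences were 0.04 for Smarca4 (95% interval -0.14 to 0.22) and 0.03 for Smarca2 (95% interval -0.07 to 0.14). Smarca2 was 1.95 ± 0.0198 times as high as Smarca4 in the null and 1.97 ± 0.195 times in WT (SD, n = 3 each).

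The BAF core, which the motor is built around, showed no subunit past the test. Smarcd3, also called Baf60c and known for a part in neuronal and muscle forms of the complex, had the smallest p of the 7. It was at 116.82, 116.26 and 129.46 TPM in the null samples, against 112.68, 115.28 and 103.93 TPM in the WT samples. The groups did not overlap, by a margin of less than 1 TPM, and after median-ratio scaling and upper-quartile scaling they did overlap. Its log2 difference was 0.13 (95% interval -0.03 to 0.28) with an unadjusted limma p of 0.0900. Its exons share bases with those of Chpf2 on the opposite strand, at 15.2 TPM, and the sources used here do not say whether counting used strand. Smarcd2, a paralog best known from blood cells, was at 12.96, 15.37 and 12.70 TPM in the null, against 13.75, 16.32 and 16.34 TPM in WT, with overlap. The difference was -0.17 (95% interval -0.43 to 0.09), the lowest of the 46. Smarcb1, the core subunit lost in rhabdoid tumours, averaged 98.1 ± 4.75 TPM in the null and 97.5 ± 6.57 TPM in WT (SD, n = 3 each), with a difference of 0.01 (95% interval -0.15 to 0.17). The scaffold pair Smarcc1 and Smarcc2, together with Smarcd1 and Smarce1, had differences between -0.04 and 0.09. Smarcc1, with a mean of 31.5 TPM, shares exon bases with Dhx30 on the opposite strand, at 56.3 TPM. The median of the core was 0.058, or 0.012 without WT replicate 1, 0.032 without null replicate 3 and 0.093 without null replicate 1.

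Of the 6 subunits that define the canonical, PBAF and non-canonical forms, 5 had small differences above 0, beside 57.5% of all genes tested. The median of the 6 was 0.10, or 0.050 without WT replicate 1 and 0.11 without WT replicate 2. Arid2, the large subunit of PBAF, was at 17.64, 17.15 and 17.45 TPM in the null samples, against 15.45, 16.29 and 16.69 TPM in the WT samples, with no overlap. Its difference was 0.10 (95% interval -0.06 to 0.27), with an unadjusted limma p of 0.174. Pbrm1, the polybromo subunit of PBAF, was at 27.22, 34.62 and 29.73 TPM in the null, against 24.65, 26.40 and 29.98 TPM in WT. The difference of Pbrm1 was 0.17 (95% interval -0.10 to 0.43). Its exons share bases with those of Gnl3 on the opposite strand, at 21.1 TPM. Brd7, the third subunit typical of PBAF, lay on the other side, at 42.2 ± 6.95 TPM in the null and 45.2 ± 3.75 TPM in WT (SD, n = 3 each). The difference of Brd7 was -0.11 (95% interval -0.40 to 0.19), and -0.0020 without null replicate 1. Brd9, a bromodomain subunit of the non-canonical form, was at 54.46, 55.99 and 59.47 TPM in the null, against 53.46, 54.92 and 48.93 TPM in WT, with a difference of 0.11 (95% interval -0.04 to 0.26). Arid1a and Arid1b, the alternative large subunits of canonical BAF, differed by 0.02 (95% interval -0.14 to 0.18) and 0.10 (95% interval -0.10 to 0.29).

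Of the Bcl7 and Bcl11 members, Bcl11a had the smallest p. Bcl11a, a zinc finger factor of neurons that associates with BAF, was at 61.64, 61.15 and 68.61 TPM in the null samples, against 62.46, 57.60 and 55.98 TPM in the WT samples. The highest WT value lay above the lower null values, and the difference was 0.12 (95% interval -0.05 to 0.28), with an unadjusted limma p of 0.1299. Its relative Bcl11b averaged 15.5 ± 1.42 TPM in the null and 14.4 ± 1.63 TPM in WT (SD, n = 3 each). The small subunits Bcl7a, Bcl7b and Bcl7c had differences of 0.06, -0.08 and 0.02.

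The shares of paralogs in the transcripts of a position differed by 7.17 points at most. TPM are per transcript length, so the paralogs of a position can be set side by side, and their shares were taken for 36 genes in 15 positions. These are shares of transcripts and do not measure which protein is in the complex. The exon overlaps named above apply to these shares too. Among the positions with overlapping groups were the following. Smarcc2 gave 79.8% ± 0.317 of Smarcc1 and Smarcc2 in the null and 80.2% ± 1.09 in WT (SD, n = 3 each). Actl6b gave 87.1% ± 1.26 of its pair in the null and 86.3% ± 0.890 in WT. Chd3 gave 63.4% ± 0.411 of the 3 NuRD motors in the null and 63.3% ± 2.32 in WT. Rbbp7 gave 66.1% ± 0.406 of Rbbp4 and Rbbp7 in the null and 66.0% ± 1.06 in WT. Across all 6 samples the share of Chd3 was between 60.7% and 64.8%.

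In 3 of 15 positions, 5 shares did not overlap between groups, of which the 4 of the paired positions mirror each other. By TPM, 8.91% of single genes tested lay above and 5.38% below all WT samples. No such percentage was computed for shares, a different measure, so the 5 shares cannot be set against these. Ss18l1 gave 64.8% ± 0.525 of its pair in the null and 60.9% ± 1.51 in WT, so that Ss18 was the lower by the same 3.89 points. Smarcd1 gave 29.6% ± 0.857 of the Smarcd paralogs in the null and 31.5% ± 0.569 in WT. Mbd2 gave 21.1% ± 3.20 of Mbd2 and Mbd3 in the null and 18.7% ± 0.108 in WT, and Mbd3 the rest. The Mbd share rested on null replicate 1, at 24.7% for Mbd2 against 19.7% and 18.8% in the other null samples, and without it the difference in the Mbd3 share was -0.543 points in place of -2.37. The largest difference was at Ezh1 and Ezh2, where the larger mean share was that of Ezh2 in the null and of Ezh1 in WT. Ezh2 gave 54.6% ± 6.20 of the pair in the null and 47.5% ± 3.42 in WT (SD, n = 3 each), with overlapping groups.

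**Figure D3:**
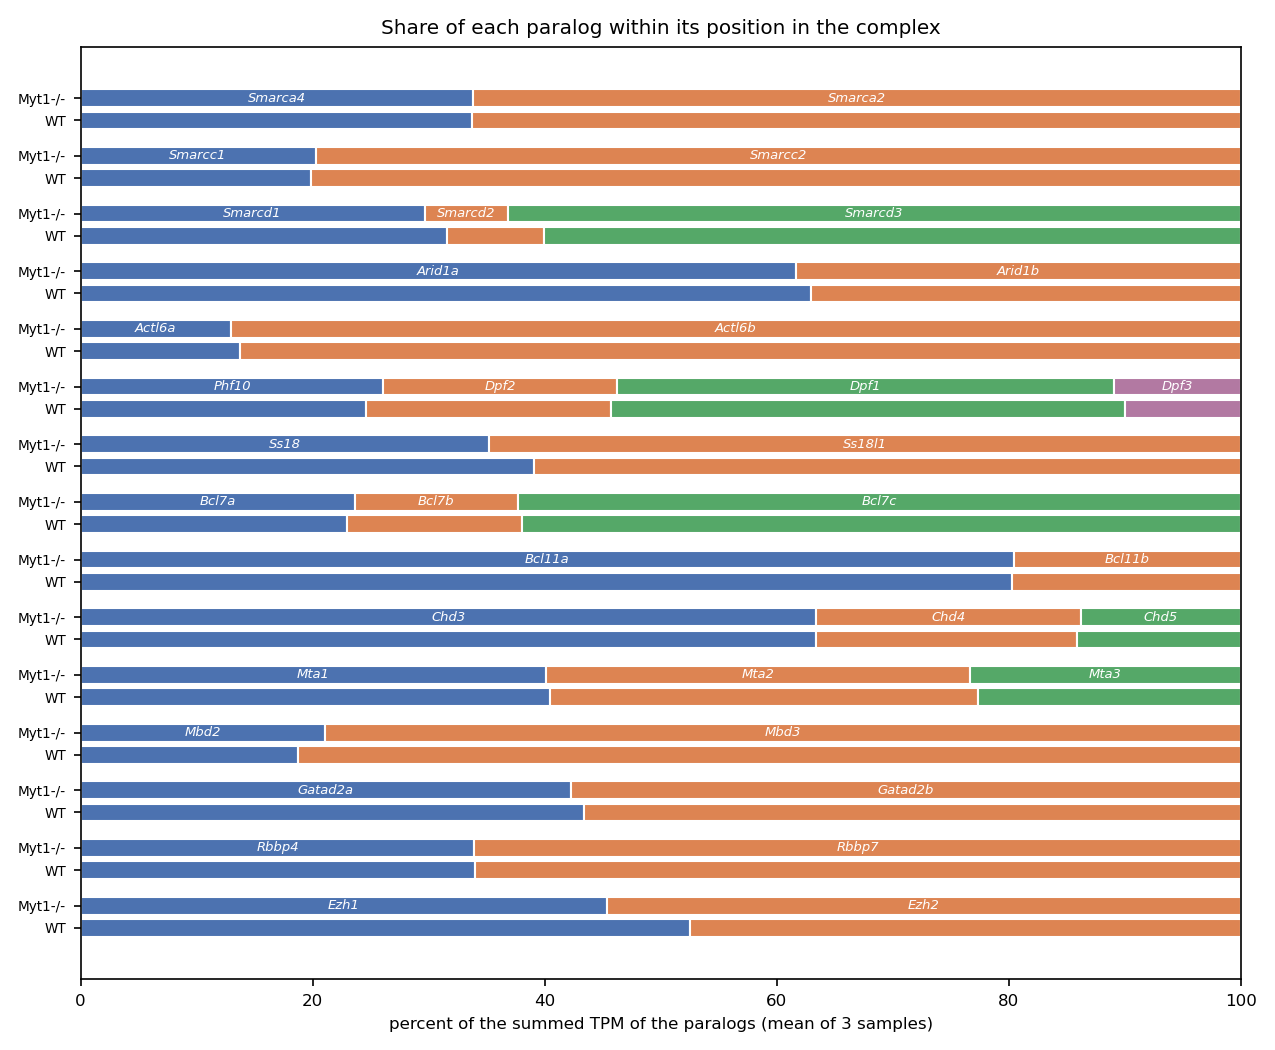
Share of each paralog in the summed TPM of its position (x axis, percent, mean of 3 samples), null above WT for each of 15 positions. The boundaries between paralogs shift by at most 7.17 points, at Ezh1 and Ezh2.

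The NuRD motors were measured at high and even levels. Chd3 had the highest mean of the 46 genes, 228 TPM, with 230.24, 229.98 and 227.25 TPM in the null samples, against 200.09, 232.23 and 246.82 TPM in the WT samples. The null values lay inside the WT range. Chd4, the motor used in most dividing cells, was at 81.11, 83.21 and 82.76 TPM in the null, against 81.75, 76.12 and 82.70 TPM in WT. Chd5, which is largely restricted to neurons and testis, was at 49.96, 48.60 and 51.01 TPM in the null, against 48.01, 51.19 and 51.51 TPM in WT. The differences were 0.02 for Chd3 (95% interval -0.16 to 0.21), 0.04 for Chd4 (95% interval -0.08 to 0.16) and -0.01 for Chd5 (95% interval -0.14 to 0.12).

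Mbd3, the methyl-binding domain protein that holds NuRD together, was the NuRD subunit with the smallest p. Mbd3 (ENSMUSG00000035478, chromosome 10, 80392539 to 80399550, minus strand, GRCm38) was at 123.88, 141.02 and 132.82 TPM in the null samples, against 143.43, 145.51 and 145.82 TPM in the WT samples. All null samples lay below all WT samples, and null replicate 1 was the lowest. The mean was 133 ± 8.57 TPM in the null and 145 ± 1.30 TPM in WT (SD, n = 3 each), and the log2 difference was -0.13 (SE 0.055, 95% interval -0.26 to 0.0013). By limma the unadjusted p was 0.0518 and the adjusted p over all genes tested 0.671. The unadjusted p was 0.0292 after median-ratio scaling, 0.0377 after upper-quartile scaling and 0.0195 without null replicate 2. Without null replicate 1 the difference was -0.08, with an unadjusted p of 0.150. Mbd2, which binds methylated DNA and forms a separate NuRD, was at 40.72, 34.50 and 30.82 TPM in the null, against 33.03, 33.69 and 33.29 TPM in WT. Null replicates 1 and 3 lay on opposite sides of all WT values, and the difference was 0.07 (95% interval -0.17 to 0.31).

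The remaining NuRD subunits differed by less than 0.06 in either direction. Mta1 and Mta2, which carry the deacetylases, had differences of -0.01 each (95% intervals -0.16 to 0.15 and -0.14 to 0.13), and their paralog Mta3 had 0.06 (95% interval -0.21 to 0.32). Gatad2a and Gatad2b, which bridge the motor to the rest, had -0.05 (95% interval -0.27 to 0.16) and 0.01 (95% interval -0.20 to 0.22). Over the 10 NuRD motors and subunits the median was 0.0023, with 5 above 0 and 5 below. It was -0.023 after median-ratio scaling and between -0.042 and 0.038 with 1 sample left out. Rbbp4 and Rbbp7, histone-binding proteins that NuRD and PRC2 share, differed by 0.07 each (95% intervals -0.09 to 0.23 and -0.06 to 0.21).

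Chd7 and Chd8 belong to another Chd subfamily and are not NuRD motors. Chd7, known for CHARGE syndrome and for acting with Sox10 in oligodendrocytes, was the lowest of the 46 genes. It was at 10.39, 7.33 and 7.25 TPM in the null samples, against 5.28, 11.29 and 6.68 TPM in the WT samples. WT replicates 1 and 2 were the lowest and highest of all, and the interval was the widest of the 46, at -0.50 to 0.77 around 0.13. Chd8, an autism-associated motor, averaged 37.4 ± 4.88 TPM in the null and 38.5 ± 3.79 TPM in WT (SD, n = 3 each).

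**Figure D4:**
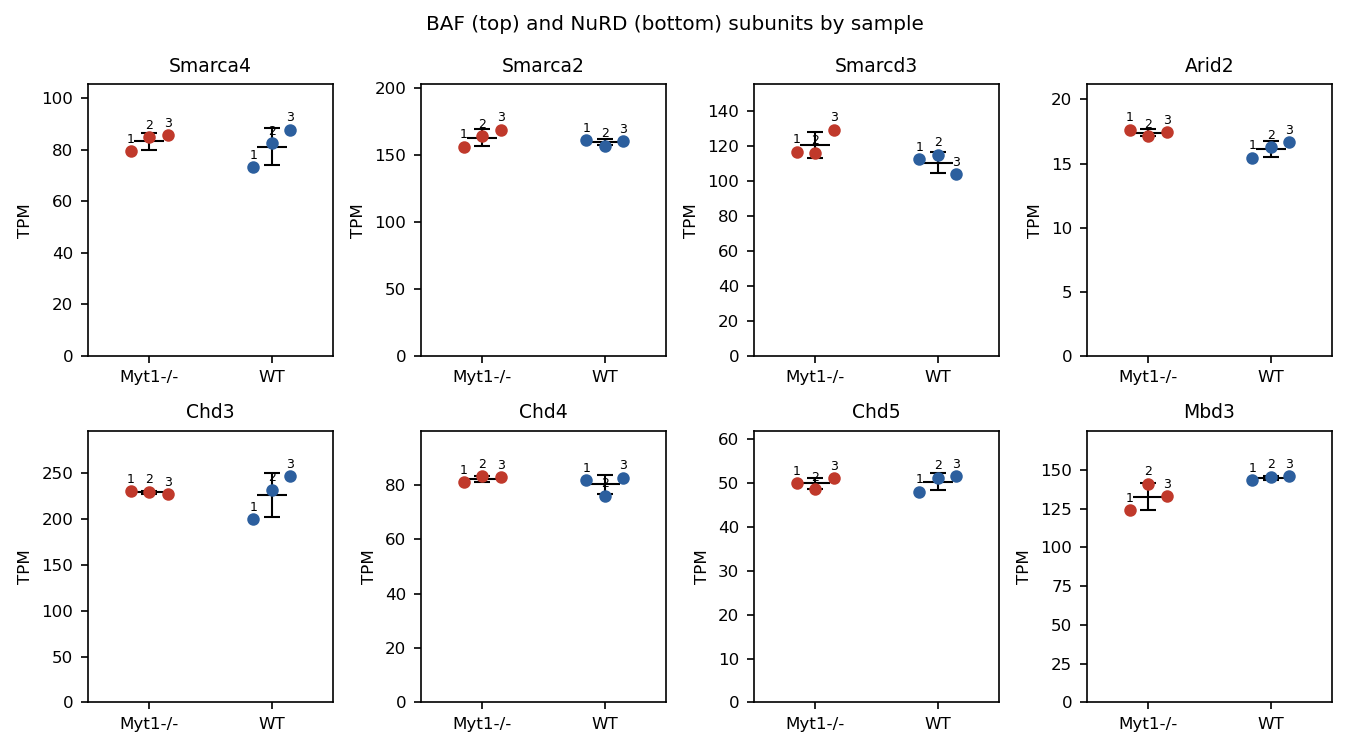
TPM of 4 BAF subunits (top row) and 4 NuRD subunits (bottom row) in each sample, null left of WT; numbers beside points are replicates, horizontal marks the means and bars the SD of 3 samples. Smarcd3, Arid2 and Mbd3 are the panels without overlap, and null replicate 1 is the lowest Mbd3 value at 123.88 TPM.

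In PRC2, Ezh2 had the largest log2 difference of the 46 genes. Ezh2 (ENSMUSG00000029687, chromosome 6, 47530139 to 47595341, minus strand, GRCm38), whose sequence at the RefSeq start is shown above, encodes the methyltransferase used in dividing progenitors. It was at 18.16, 24.63 and 27.04 TPM in the null samples, against 13.52, 14.93 and 18.57 TPM in the WT samples. Null replicate 1 lay below WT replicate 3, so the groups overlapped, though not after upper-quartile scaling. The mean was 23.3 ± 4.59 TPM in the null and 15.7 ± 2.61 TPM in WT (SD, n = 3 each), 1.49-fold higher, with a log2 difference of 0.53 (SE 0.17, 95% interval 0.12 to 0.95). By limma the unadjusted p was 0.0183 and the adjusted p over all genes tested 0.669, so it did not pass. The unadjusted p was 0.0579 without null replicate 2, 0.0623 without null replicate 3, 0.0594 without WT replicate 1 and 0.0529 without WT replicate 2, with differences of 0.42 to 0.51 in these fits. It was 0.00354 without null replicate 1 and 0.0104 without WT replicate 3.

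Markers of other cells were read beside Ezh2. Proliferation markers (7 genes) summed to 193, 203 and 201 TPM in the null samples, against 164, 210.3 and 228 TPM in the WT samples, and 0 of 7 lay above or below all WT samples. Their median log2 difference was -0.0076. The 5 erythroid markers summed to 1821, 4771 and 6551 TPM in the null, against 1267, 1758 and 7531 TPM in WT. Within each group the order of these sums was that of Ezh2. The same order held for the proliferation markers Mki67, Top2a and Pcna, and not for Cdk1, Ccnb1, Aurkb and Mcm2. The part of either list in the Ezh2 difference was not tested. Radial glia and progenitor markers (6 genes) summed to 2503, 2611 and 2464.5 TPM in the null, against 2212, 2260 and 2379 TPM in WT, without overlap. Of the 6, only Fabp7 lay above all WT samples, beside 8.91% of all genes tested. Fabp7 was at 1882, 1927 and 1827 TPM in the null against 1671, 1577 and 1593 TPM in WT. The other 5 overlapped, and Sox2 and Vim had lower means in the null. Their part was not tested.

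The other core PRC2 subunits stood closer to their WT levels. Ezh1, the form that prevails in cells that no longer divide, was at 19.16, 20.79 and 17.26 TPM in the null samples, against 14.35, 19.27 and 18.39 TPM in the WT samples. The difference was 0.14 (95% interval -0.17 to 0.44). Eed, which reads the methyl mark, was at 18.44, 20.45 and 21.10 TPM in the null, against 14.86, 20.67 and 17.38 TPM in WT, with a difference of 0.18 (95% interval -0.12 to 0.48). Its unadjusted limma p was 0.192, and 0.0361 without WT replicate 2. Suz12, the scaffold of PRC2, was at 19.69, 17.34 and 17.79 TPM in the null, against 17.32, 17.24 and 18.38 TPM in WT, with a difference of 0.05 (95% interval -0.14 to 0.23). All 4 subunits had differences above 0, beside 57.5% of all genes tested. Their median was 0.16, or 0.052 without WT replicate 1 and 0.26 without WT replicate 2. With 1 sample left out, Suz12 fell as low as -0.0059 and Ezh1 as low as 0.014. Ezh2 over Ezh1 was 0.948, 1.18 and 1.57 in the null, against 0.942, 0.775 and 1.01 in WT, with overlap at null replicate 1.

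**Figure D5:**
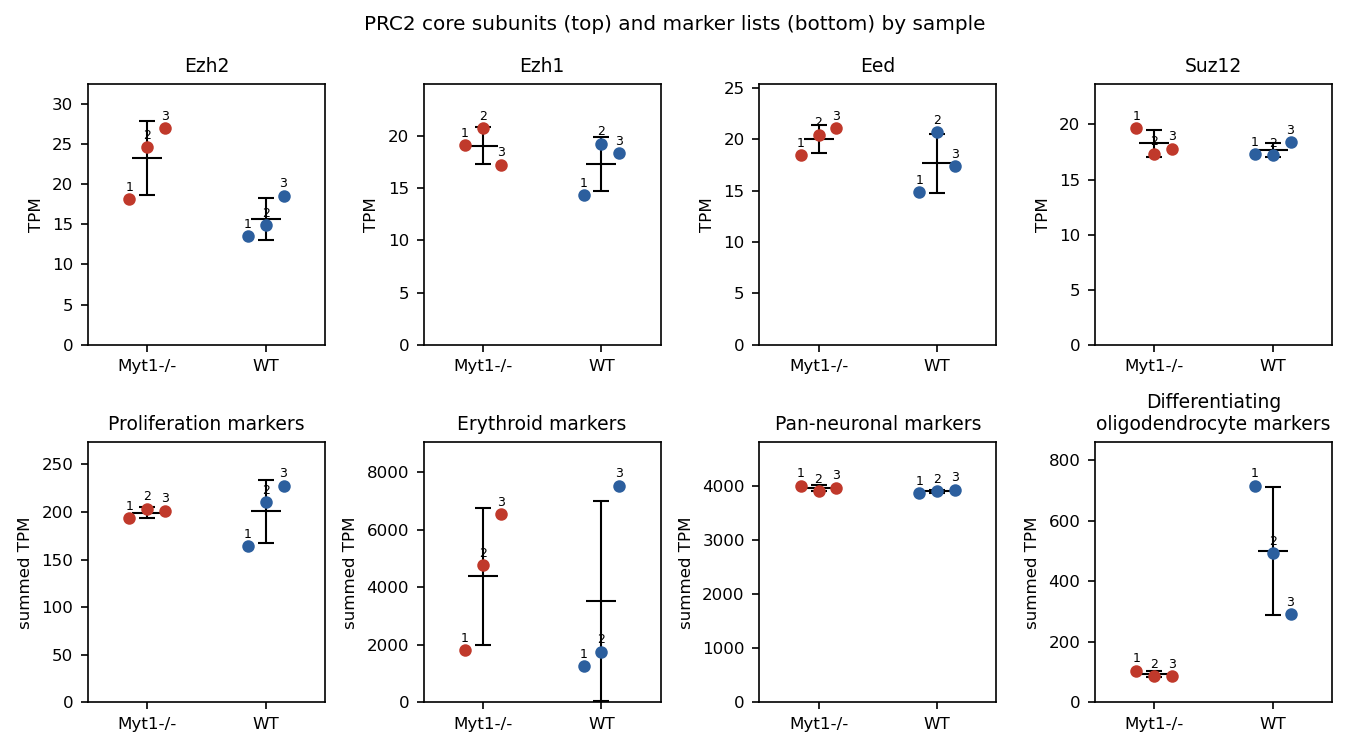
TPM of the 4 core PRC2 subunits (top row) and summed TPM of 4 marker lists (bottom row) in each sample, null left of WT; numbers beside points are replicates, horizontal marks the means and bars the SD of 3 samples. Ezh2 reaches 27.04 TPM in null replicate 3 and 18.57 TPM in WT replicate 3, the samples in which erythroid markers are also highest in their groups, at 6551 and 7531 TPM. The proliferation sum is highest in null replicate 2 and in WT replicate 3, at 203 and 228 TPM.

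Of 7 listed accessory subunits of PRC2, 6 were tested, and none passed over all genes tested. Mtf2, which recruits PRC2 to CpG-rich DNA, was at 22.95, 21.55 and 21.84 TPM in the null samples, against 15.81, 19.57 and 19.33 TPM in the WT samples, without overlap. Its difference was 0.27 (95% interval 0.04 to 0.50) with an unadjusted limma p of 0.0272. Jarid2, another recruiting subunit, differed by 0.26 (95% interval -0.07 to 0.59), and the median of the 6 was 0.058, or -0.066 without WT replicate 1, 0.13 without null replicate 1 and 0.16 without WT replicate 3. Among 19 PRC1 genes, the other Polycomb complex, 0 were at an unadjusted limma p under 0.05 and 0 lay apart from WT. Their median was 0.054 (0.028 to 0.094 with 1 sample left out), and those with the smallest p were Kdm2b, Phc2 and Rybp, at 0.14, -0.11 and 0.11. Enzymes that remove the methyl mark or acetylate the same residue (Kdm6a, Kdm6b, Crebbp and Ep300) had 0 of 4 at an unadjusted limma p under 0.05.

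Among NuRD partners, 8 of 9 listed genes were tested and 0 passed over all genes tested. All null samples lay above all WT samples for 4 of the 8 (Hdac2, Cdk2ap1, Sall1 and Zfpm2), beside 8.91% of all genes, and below for 0. At an unadjusted limma p under 0.05, 2 were higher, beside 4.32% of all genes tested, and 1 lower, beside 3.13%. The median was 0.11, or 0.060 without WT replicate 1 and 0.071 without null replicate 2. Zfpm2, a Gata cofactor that binds NuRD, was at 10.32, 9.43 and 10.38 TPM in the null samples, against 8.08, 8.02 and 7.87 TPM in the WT samples, without overlap. The difference was 0.30 (95% interval 0.09 to 0.50), with an unadjusted limma p of 0.0122. Its relative Zfpm1 lay on the other side, at 7.06 ± 0.694 TPM in the null and 9.44 ± 1.62 TPM in WT (SD, n = 3 each). Hdac2, which with Hdac1 supplies the deacetylase activity of the complex, was at 172.29, 178.50 and 185.72 TPM in the null, against 154.26, 159.56 and 157.32 TPM in WT. It differed by 0.19 with an unadjusted limma p of 0.00404 and an adjusted p of 0.638 over all genes tested. Hdac1 overlapped between the groups and differed by 0.13 (95% interval -0.13 to 0.38). Of 19 remodellers of the ISWI, INO80 and related families, 1 was higher at an unadjusted limma p under 0.05, beside 4.32% of all genes. This was Chd6, at 25.1 ± 1.06 TPM in the null and 20.7 ± 1.23 TPM in WT (SD, n = 3 each). All null samples lay above all WT samples for 3 of the 19 (Chd6, Atrx and Smarca1), beside 8.91% of all genes.

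The genes that set the neuronal form of BAF were read last. Rest, the repressor that keeps neuronal genes silent outside neurons, was at 5.31, 5.04 and 5.18 TPM in the null samples, against 3.24, 5.13 and 5.51 TPM in the WT samples, with overlap. Mir124a-1hg, the host transcript of a miR-124 gene, was at 7.21, 9.40 and 7.32 TPM in the null, against 2.97, 8.38 and 5.26 TPM in WT. Mir124-2hg, the host of another miR-124 gene, was at 28.99, 31.02 and 27.09 TPM in the null, against 35.00, 26.15 and 26.69 TPM in WT. Mir9-3hg, the host of a miR-9 gene, was at 73.73, 54.36 and 73.19 TPM in the null, against 116.60, 84.51 and 44.66 TPM in WT. None of these host transcripts separated the groups. The log2 differences were 0.54 for Mir124a-1hg (95% interval -0.19 to 1.26), -0.0016 for Mir124-2hg (95% interval -0.29 to 0.29) and -0.19 for Mir9-3hg (95% interval -0.98 to 0.60). Of the 7 genes in this list 0 were at an unadjusted limma p under 0.05. A host transcript is not a measure of the mature microRNA.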

How the data were processed

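RNA of thoracic spinal cord from newborn mice was sequenced with a TruSeq library, per the labels' protocols. The samples were 3 labelled Myt1-/- and 3 labelled WT, and the number of animals is not given. The deposited table gives values by gene and sample with 2 decimals; they were taken as TPM because each sample's column sums to nearly the same total (993139 to 994687) and the submitters' notes name RSEM. RSEM, DESeq2 and GRCm38.p6 are named in the submitters' processing notes without a step; which aligner, annotation and strand setting served is not given in the sources used here. There is 1 column of per-sample values with no labelled sample, which was not used. Groups come from the sample titles and columns from the sample descriptions.

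Log2(TPM + 1) of 15962 genes with a mean of at least 1 TPM over the 6 samples was fitted with limma 3.58.1 (R 4.3.3), letting the prior variance follow the mean level, genotype being the only term and two-sided p-values, Benjamini-Hochberg adjusted over all genes tested. All 46 members passed the filter. Log2 differences are null minus WT and understate changes of low genes; folds are ratios of mean TPM. The fit was tested on simulated data.

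The members, the lists and the tests were chosen with earlier results of these data known. Genes with values for every sample are the progenitor and neuronal BAF subunits, the motors and enzymes, Myt1 and the 8 other members with the smallest p. Rest, the microRNA host genes and the motifs, with the genes whose sequence at the RefSeq start is shown, were set by role, and the motifs and these sequences after values were seen. Suz12, Mbd2 and Chd7 were given in full after their values were seen. Up to 3 genes of each further list are named by p.

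Exons of 23 members share bases with another gene in GENCODE M21, in 10 cases with a gene of at least 1 TPM (Actl6a, Bcl7a, Dpf2, Eed, Pbrm1, Phf10, Rbbp4, Rbbp7, Smarcc1 and Smarcd3). Alternatives were 1 prior variance for all genes, a pseudocount of 0.1, other filters, median-ratio and upper-quartile scaling, replicate number as a block and each sample left out. Python 3.11.15 and matplotlib 3.10.9 made the figures.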

Additional observations from a re-analysis of the deposited data

How the results depend on the processing

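None of the 46 genes passed over all genes tested under any of the 13 alternatives, and of 598 values of single genes under these alternatives 37 had another sign than the reported one, in 17 genes, none of them past the test. Scaling moved the median of all genes by under 0.1. The number of all genes passing was 1 with a pseudocount of 0.1 TPM (Gm43493) and between 0 and 7 with 1 sample left out, 7 of them without WT replicate 2. Lower members at an unadjusted limma p under 0.05 numbered 1 without the filter on low values, after median-ratio scaling and after upper-quartile scaling, and between 0 and 1 with 1 sample left out; the gene was Mbd3 each time, and the cause was not tested. Of all genes tested, 723 of 28293 were lower at that threshold without the filter. After median-ratio and upper-quartile scaling 656 and 546 of 15962 were lower. Higher members at that threshold numbered between 1 and 3 with 1 sample left out, beside 2.43% to 5.71% of all genes tested. Both the 3 members and the 5.71% came from the fit without WT replicate 3. With 1 sample left out, members above all WT samples numbered between 4 and 11, highest without null replicate 1 and 10 without WT replicate 3. Members below all WT samples then numbered between 1 and 7, highest without WT replicate 1. Fewer samples make such separation easier by construction. No share of all genes was computed for separation in these fits or after scaling, so the counts are not a result about the members. After median-ratio scaling the members above were Arid2 and Ss18l1, and after upper-quartile scaling Arid2, Ezh2 and Ss18l1. Mbd3 alone lay below after either scaling. Without WT replicate 1 the median of the NuRD motors was -0.042. With replicate number as a replicate block 0 genes passed, the smallest adjusted p of the 46 was 0.609, and the same 2 members were at an unadjusted p under 0.05. No label ties a number to a litter, day or batch, and deviations of same-numbered samples correlated across genes at 0.031, -0.070 and 0.061, so the block is given here only. The depth is unknown, which leaves the spread between 3 samples as the only measure of precision.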
